A study of Mus musculus with 6 samples.

Results

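The nuclear genes for the subunits of the mitochondrial respiratory chain and of ATP synthase are described here in mouse pancreatic islets with and without Ucn3. They were taken by symbol: names that begin with Ndufa, Ndufb, Ndufc, Ndufs or Ndufv and a digit, with Uqcr, Cox4 to Cox8 or Atp5, and the name Cyc1. The rule found 82 of the 21813 gene symbols in the table, 37 for complex I, 9 for complex III, 19 for complex IV and 17 for complex V. Of these, 77 averaged at least 1 RPKM (reads scaled for transcript length and library depth) over the libraries and were tested. Of the 82 names, at least 3 are caught by spelling: Cox4nb encodes a protein of the endoplasmic reticulum membrane complex, and Atp5s and Atp5sl are not structural subunits of ATP synthase. Each name was placed in a complex by its symbol alone.

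RNA was sequenced from the islets of 3 male Ucn3 null mice and of 3 male wild-type littermates, 1 library per animal, all aged 3 months. Ucn3 encodes urocortin 3, a peptide that beta cells release with insulin. The null allele itself, the strain and the inactivation strategy are not given in the sources used here, and the label calls the tissue mixed while the extraction text speaks of a sort. The labels pair no animals across genotypes, and replicate numbers are only names.

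The chain passes electrons from NADH and succinate to oxygen and pumps protons across the inner mitochondrial membrane. Complex I oxidises NADH, complex III hands electrons from ubiquinol to cytochrome c, complex IV reduces oxygen, and complex V, the ATP synthase, uses the proton gradient to make ATP. In beta cells the ATP made from glucose closes potassium channels and so starts insulin release. Most subunits are encoded in the nucleus, a few in mitochondrial DNA, and nuclear subunit genes often carry sites for NRF1, for GABP (an ETS factor) and for YY1 near their start.

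Because nearly all members differed in the same direction, the promoters of 4 members are shown. For each complex the one given has the smallest p among members whose 250 bases before the RefSeq start hold at least 1 of 3 motifs. The motifs were GCGCA and GCGC with any 1 base between them for NRF1, CCGGAAG for ETS factors and AAGATGGCG for YY1, searched on both strands, and capitals mark the matches. The sequences run 5′ to 3′ along the gene in RefSeq's GRCm38.p6 build, and all 4 genes lie on the minus strand. The windows are chr16:37654369-37654618 for Ndufb4, chr4:116075071-116075320 for Uqcrh, chr7:30626115-30626364 for Cox6b1 and chr5:108434400-108434649 for Atp5k.
Ndufb4: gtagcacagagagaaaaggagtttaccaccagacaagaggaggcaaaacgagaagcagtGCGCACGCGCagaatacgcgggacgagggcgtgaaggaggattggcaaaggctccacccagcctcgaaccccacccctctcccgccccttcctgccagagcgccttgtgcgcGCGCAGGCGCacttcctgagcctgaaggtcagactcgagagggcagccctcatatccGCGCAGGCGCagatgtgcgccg
Uqcrh: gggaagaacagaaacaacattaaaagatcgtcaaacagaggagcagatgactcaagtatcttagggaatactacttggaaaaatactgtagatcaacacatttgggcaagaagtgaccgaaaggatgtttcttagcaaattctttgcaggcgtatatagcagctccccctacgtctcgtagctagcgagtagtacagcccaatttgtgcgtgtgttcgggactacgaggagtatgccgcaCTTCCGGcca
Cox6b1: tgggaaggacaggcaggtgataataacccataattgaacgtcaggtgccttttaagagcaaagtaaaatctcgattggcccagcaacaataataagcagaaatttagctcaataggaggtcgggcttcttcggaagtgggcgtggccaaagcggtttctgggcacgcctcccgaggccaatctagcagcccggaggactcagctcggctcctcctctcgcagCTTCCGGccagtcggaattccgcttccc
Atp5k: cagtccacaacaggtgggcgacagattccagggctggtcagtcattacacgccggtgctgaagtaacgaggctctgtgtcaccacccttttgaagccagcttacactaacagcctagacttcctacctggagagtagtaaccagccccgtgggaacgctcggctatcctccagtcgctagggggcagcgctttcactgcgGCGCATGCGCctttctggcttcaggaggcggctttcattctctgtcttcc
Ndufb4 held 3 NRF1 matches and Atp5k 1, while Uqcrh and Cox6b1 held 1 ETS match each, starting 10 and 28 bases before the gene's start.

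Promoter windows were at hand for 63 of the 82 members. The NRF1 letters stood in 11 of the 63, or 17.5%, against 4.23% of 27025 genes in the promoter table. The ETS letters also stood in 11 of the 63, or 17.5%, against 7.83% of those genes, and the YY1 letters in 1 of the 63, or 1.59%, against 0.710%. The 27025 genes were neither limited to those tested in islets nor matched to the members for level or base content. At least 1 motif stood in 20 of the 63 members. Tested members with a motif had a median log2 difference of -0.17 (20 genes), and those without one -0.19 (40 genes). Only exact letters in the 250 bases before the start were searched, so members without a match can hold sites elsewhere. The part of the motifs in the differences was not tested.

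The libraries matched their labels and the tissue. Ucn3 averaged 1.68 ± 0.10 RPKM in null islets and 149 ± 11.6 RPKM in wild-type islets (SD, n = 3 each). Depth, estimated from the steps between low values, was 46490000 to 51900000 reads in null and 42520000 to 48380000 reads in wild-type libraries. The 8 islet endocrine markers, insulin and glucagon among them, held 51.6% to 56.7% of the summed RPKM in null and 56.0% to 60.7% in wild-type libraries. The 35 acinar markers, genes of the digestive-enzyme cells around islets, summed to 6287 to 30501 RPKM in null and 702 to 8304 RPKM in wild-type libraries, and none of them was at 0 in every library. Delta cell markers (4 genes, Sst the bulk) summed to 683 to 1083 RPKM in null and 1747 to 2405 RPKM in wild-type libraries, and 12 ductal markers to 273 to 328 and 336 to 443 RPKM, both without overlap. Endothelial (83.7 to 94.4 and 82.7 to 92.9 RPKM), macrophage (23.5 to 39.7 and 30.4 to 65.1 RPKM), fibroblast (5.51 to 7.38 and 4.83 to 11.3 RPKM), adipocyte (5.85 to 6.51 and 4.2 to 11.5 RPKM) and red blood cell markers (102 to 444 and 111 to 588 RPKM) overlapped between null and wild-type libraries. The part of the ductal and delta cell levels in the subunit differences was not tested.

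Subunit genes stood slightly lower in null islets across all 4 complexes, by 10.9% to 12.8% in the summed level of a complex. Of the 77 tested members, 76 had a negative log2 difference (null minus wild type, on log2(RPKM + 1)), where 61.7% of all tested genes did. None passed an adjusted p of 0.05 in limma over the 12652 tested genes, and the smallest adjusted p of a member was 0.49. Over all genes 0.0158% were called lower and 0% higher. With an unadjusted p below 0.05 in limma there were 26 members, all lower, against 7.9% of all genes lower and 1.46% higher. This count moved with the settings. It was 9 to 20 under other scalings between libraries, 5 with the length trend removed and 2 with acinar RNA as a covariate. It was 10, 5 and 26 without null replicates 1 to 3 and 47, 6 and 11 without wild-type replicates 1 to 3. In 28 of the 77 members, or 36.4%, the highest null library lay below the lowest wild-type library, against 13.2% of all genes. In 0 members did all null libraries lie above, against 1.9% of all genes. The median log2 difference was -0.17 over the members and -0.034 over all tested genes.

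**Figure D1:**
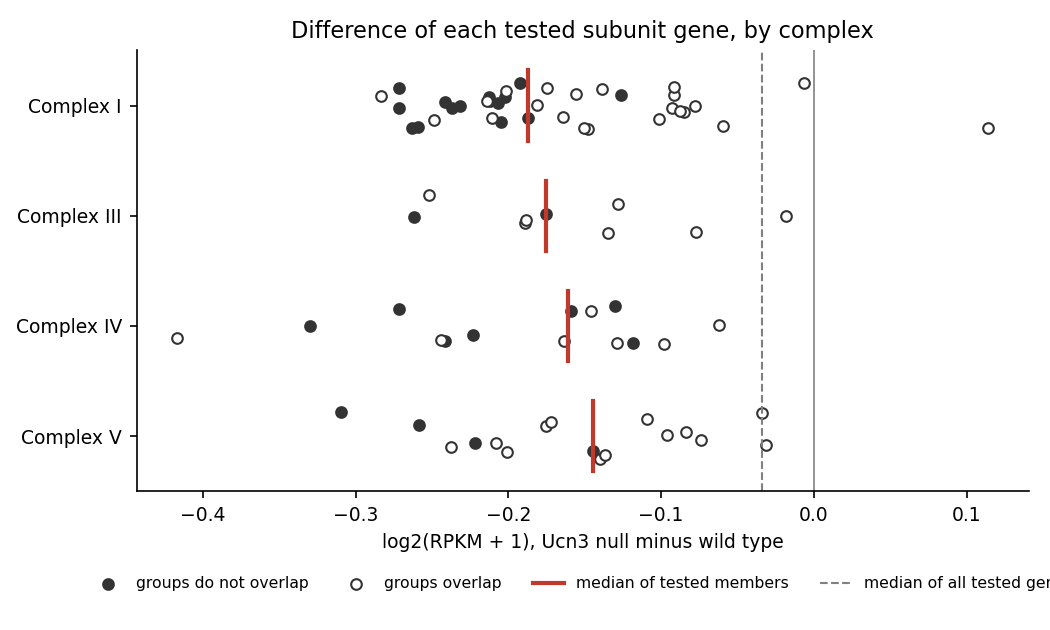
Each point is 1 tested subunit gene, placed by its log2(RPKM + 1) in Ucn3 null minus wild-type islets, with complexes I, III, IV and V from top to bottom. Of the 77 points, 76 lie left of 0 (69 to 73 under other scalings between libraries), and 28 are filled because the 3 null libraries do not overlap the 3 wild-type libraries.

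The summed level of all 82 members was 2991, 3064 and 3287 RPKM in null replicates 1 to 3 and 3242, 3768 and 3601 RPKM in wild-type replicates 1 to 3. Null replicate 3 and wild-type replicate 1 crossed, so the groups overlapped, with means of 3114 ± 155 and 3537 ± 269 RPKM (SD, n = 3 each). The sum was 11.96% lower in null islets. Complex I summed to 1133 ± 51.5 RPKM in null and 1291 ± 107 RPKM in wild-type islets, and complex III to 369.5 ± 16.8 and 422 ± 40.2 RPKM. Complex IV summed to 667 ± 37.2 RPKM in null and 764 ± 47.9 RPKM in wild-type islets, and complex V to 944 ± 49.3 and 1060 ± 75.5 RPKM (SD, n = 3 each). In whole islets, fewer cells of a type and less RNA per cell cannot be told apart.

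The acinar level ran in the opposite order over the same libraries. The mean log2(RPKM + 1) of the 33 tested acinar markers was 8.10, 7.40 and 6.11 in null replicates 1 to 3 and 6.35, 3.42 and 5.19 in wild-type replicates 1 to 3. The median member, as a log2 distance from its own mean over all libraries, stood at -0.14, -0.11 and -0.012 in the null libraries and at -0.025, 0.18 and 0.11 in the wild-type libraries. The library with the most acinar RNA, null replicate 1, thus had the lowest subunit level, and the one with the least, wild-type replicate 2, the highest. The order was reversed between the 2 measures for all 6 libraries. A similar order was seen outside the members, among the other tested genes with transcripts of up to 912 bases. Their median stood at -0.11, -0.085 and 0.0089 in the null and 0.037, 0.086 and 0.063 in the wild-type libraries. Null replicate 1 was again lowest and wild-type replicate 2 highest. In a fit that also held the acinar mean the median difference was -0.030 over the members and -0.020 over all genes. There 47 of the 77 members were negative, and 55.7% of all tested genes. Acinar level ran largely with genotype, and only null replicate 3 and wild-type replicate 1 crossed. With 6 libraries this fit cannot tell acinar RNA and genotype apart.

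**Figure D2:**
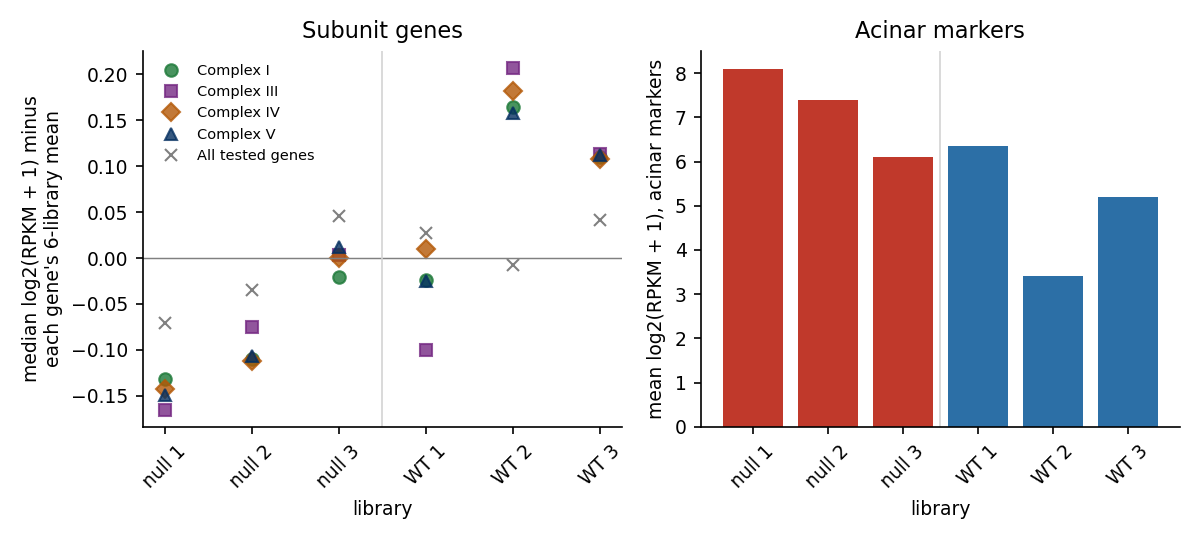
The left panel gives, for each library, the median log2(RPKM + 1) of each complex relative to each gene's mean over the 6 libraries, with all tested genes as crosses. The right panel gives the mean log2(RPKM + 1) of the acinar markers, with Ucn3 null in red and wild type in blue. Null replicate 1 is highest in acinar markers and lowest in subunit genes, and wild-type replicate 2 is the reverse.

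Subunit mRNAs are short, with a median length of 745 bases against 2682 bases over all tested genes, and the differences of all other genes moved with length too. Among the other genes of the shortest length decile, up to 912 bases, the median log2 difference was -0.12 and 71.5% were negative. The 47 members in that decile had a median of -0.20. The median of the other genes moved with length to 0.027 in the longest decile, where 37.7% were negative. The share of other genes whose null libraries all lay below the wild-type ones was 19.6% in the shortest and 6.68% in the longest decile. When the dependence on length was smoothed out of each library, the median difference was -0.053 over the members and 0.0031 over all genes. With it removed 62 of the 77 members were negative, against 48.9% of all tested genes. This alternative was chosen after the values were seen.

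**Figure D3:**
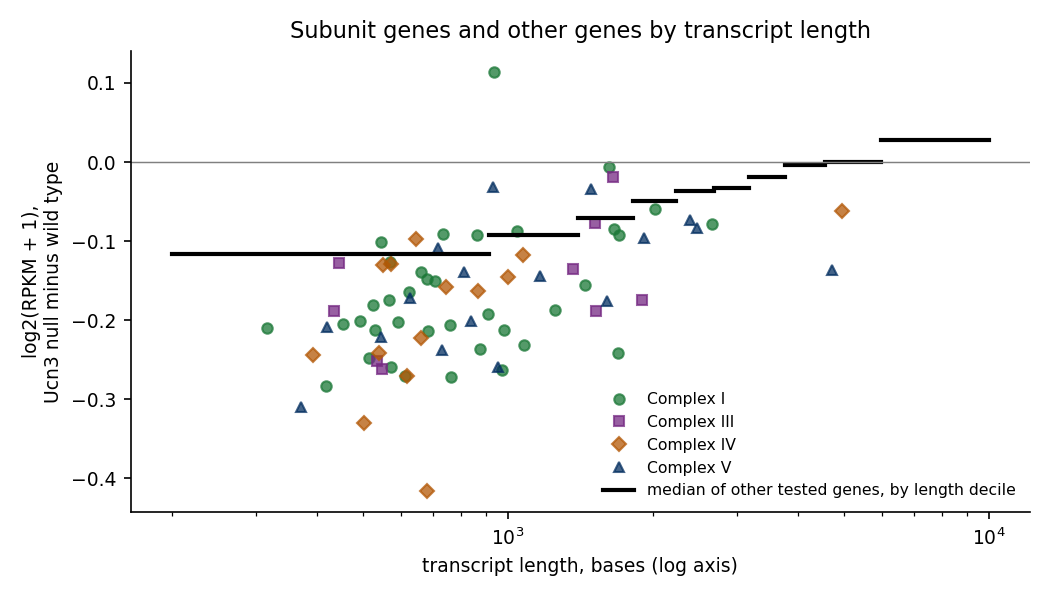
Points give the log2 difference (null minus wild type) of each tested subunit gene against transcript length on a log axis, and black lines the median of all other tested genes in each decile of length, drawn only as far as the axis reaches. The lines climb from -0.12 in the shortest to 0.027 in the longest decile, and 66 of the 77 subunit genes sit below the line for their length.

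Complex I gave 36 of 37 members with a negative difference, against 61.7% of all tested genes, with a median of -0.19. In 15 of the 37, or 40.5%, the null libraries all lay below the wild-type ones, against 13.2% of all genes. Ndufb5, an accessory subunit of the membrane arm, held 24.7, 23.8 and 25.4 RPKM in null and 29.0, 28.8 and 29.4 RPKM in wild-type libraries. Its libraries varied little within each genotype, and its means of 24.6 ± 0.82 and 29.1 ± 0.32 RPKM gave the smallest p of all members (log2 difference -0.23, SE 0.06, limma adjusted p = 0.49). Ndufb4, also of the membrane arm, held 25.4, 25.5 and 26.2 RPKM in null and 29.8, 29.3 and 34.1 RPKM in wild-type libraries. The 3 null libraries lay close together and below every wild-type library (log2 difference -0.26, SE 0.08, limma adjusted p = 0.49). Ndufb3, another small subunit of that arm, held 25.4, 23.4 and 23.4 RPKM in null and 26.8, 32.8 and 28.4 RPKM in wild-type libraries, again without overlap.

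Among the most abundant complex I names was Ndufa4, named as a complex I subunit and reassigned to complex IV in human cells. It held 65.7, 62.6 and 67.5 RPKM in null and 67.6, 86.8 and 83.9 RPKM in wild-type libraries. The groups met without overlapping between null replicate 3 and wild-type replicate 1. Its relative Ndufa4l2 was the 1 tested member with a positive difference, at 1.49 ± 0.11 RPKM in null and 1.30 ± 0.16 RPKM in wild-type islets (SD, n = 3 each), with overlapping groups. Its level rested on only 45 to 77 estimated reads per library.

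The 7 core nuclear subunits of complex I, which carry the flavin, the iron-sulfur clusters and the ubiquinone site, had a median log2 difference of -0.088. The 30 accessory names had a median of -0.19. Core genes had a median length of 1623 bases and accessory genes of 670 bases, and this split was chosen with earlier results known and was not tested. Summed levels of the core subunits were 211 ± 16.9 RPKM in null and 226 ± 20.2 RPKM in wild-type islets, and of the accessory names 923 ± 36.6 and 1064 ± 87.9 RPKM (SD, n = 3 each).

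All 9 complex III members were negative, against 61.7% of all tested genes, with a median of -0.18 (-0.095 without wild-type replicate 2). The median turned to 0.061 with acinar RNA as a covariate. In 2 of the 9, or 22.2%, the null libraries all lay below the wild-type ones, against 13.2% of all genes. Uqcrh, the acidic hinge protein between cytochromes c1 and c, was the most abundant, at 92.4, 83.2 and 91.1 RPKM in null and 101, 114 and 106 RPKM in wild-type libraries. All null libraries lay below all wild-type libraries (log2 difference -0.26, SE 0.08, limma adjusted p = 0.49). Uqcrc2, a large matrix-facing core protein, held 33.1, 32.8 and 36.8 RPKM in null and 37.0, 39.8 and 39.5 RPKM in wild-type libraries, where null replicate 3 and wild-type replicate 1 nearly met. Uqcrb, a small subunit on the matrix side, averaged 43.3 ± 2.31 RPKM in null and 52.1 ± 7.06 RPKM in wild-type islets, and Uqcrq, a small membrane subunit, 49.96 ± 3.78 and 57.3 ± 7.76 RPKM (SD, n = 3 each), both with overlap. Uqcrc1, the other large core protein, was nearest to 0, at 24.9 ± 2.48 RPKM in null and 25.2 ± 2.24 RPKM in wild-type islets (SD, n = 3 each). The catalytic Cyc1, cytochrome c1, had a log2 difference of -0.077, and Uqcrfs1, the Rieske iron-sulfur protein, of -0.13.

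Complex IV had 19 members, of which 14 were tested and all 14 were negative, against 61.7% of all tested genes. Their median was -0.16, against -0.034 over all tested genes. In 7 of the 14, or 50%, the null libraries all lay below the wild-type ones, against 13.2% of all genes. Cox6c, a small membrane-spanning subunit, held 53.2, 49.2 and 61.0 RPKM in null and 66.8, 72.7 and 65.9 RPKM in wild-type libraries. The groups did not overlap (20.5% lower in null by mean, log2 difference -0.33, SE 0.10, limma adjusted p = 0.49). Cox6b1, which caps the enzyme on the intermembrane side, held 57.7, 54.2 and 61.8 RPKM in null and 64.7, 77.3 and 68.5 RPKM in wild-type libraries, also without overlap. Cox8a, the most abundant member of the complex, averaged 114 ± 3.62 RPKM in null and 125 ± 6.59 RPKM in wild-type islets (SD, n = 3 each), again without overlap.

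**Figure D4:**
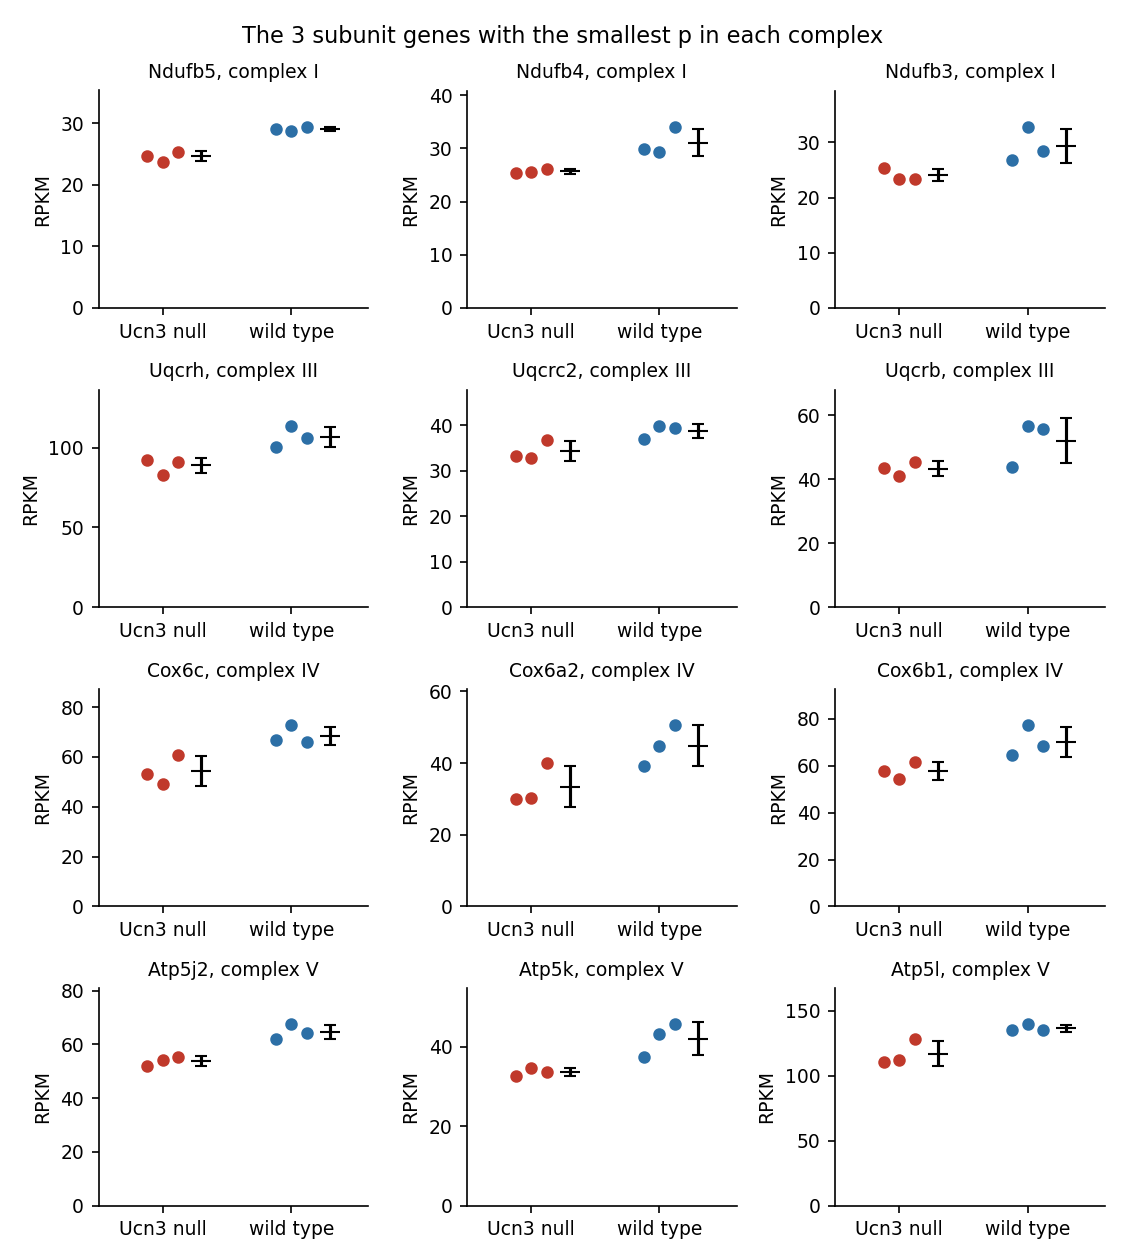
RPKM of the 3 tested members with the smallest p in each complex, in Ucn3 null (red, left) and wild-type (blue, right) islets, with 1 point per library and the mean ± SD beside the points. The groups do not overlap in 10 of the 12 panels, the exceptions being Uqcrb and Cox6a2. Choosing by smallest p favours separated groups. The null libraries all lay below in 28 of the 77 tested members, or 36.4%, and in 13.2% of all genes. None of the 12 passed over all genes.

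Several complex IV subunits come as isoform genes for different tissues, and islets carried mostly the general forms. Cox4i1, the general form of subunit 4, averaged 76.1 ± 5.77 RPKM in null and 85.0 ± 5.43 RPKM in wild-type islets, whereas Cox4i2, known from lung and hypoxia, held 0.71 ± 0.15 and 0.97 ± 0.21 RPKM (SD, n = 3 each). Cox7a2 and Cox7a2l, the general form of subunit 7a and a factor of respiratory supercomplexes, averaged 35.3 ± 1.90 and 85.0 ± 3.47 RPKM in null, against 41.4 ± 2.87 and 92.3 ± 1.94 RPKM in wild-type islets. Cox7a1, the muscle form, held 1.15 ± 0.17 RPKM in null and 1.55 ± 0.29 RPKM in wild-type islets. Cox7b averaged 26.9 ± 1.79 RPKM in null and 29.9 ± 2.02 RPKM in wild-type islets. Its relative Cox7b2 and the testis forms Cox6b2 and Cox8c, with the muscle and brown fat form Cox8b, each averaged under 1 RPKM and were not tested. Among these, Cox6b2 and Cox7b2 ranged from 0.13 to 0.61 RPKM and Cox8b and Cox8c from 0 to 0.23 RPKM over all libraries.

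Cox6a2 departed from this pattern. It encodes the heart and skeletal muscle form of subunit 6a, and it held 30.0, 30.2 and 40.0 RPKM in null and 39.1, 44.8 and 50.6 RPKM in wild-type libraries. The groups overlapped only between null replicate 3 and wild-type replicate 1, and its log2 difference of -0.42 (SE 0.14, limma adjusted p = 0.49) was the most negative of all tested members with the main settings. Without wild-type replicate 3 Cox6c was more negative (-0.36, against -0.33 for Cox6a2), and with acinar RNA as a covariate Ndufb4 was (-0.27, against -0.19). The general form Cox6a1 averaged 71.2 ± 5.13 RPKM in null and 78.2 ± 9.99 RPKM in wild-type islets (SD, n = 3 each). Of 8 skeletal muscle markers only Acta1 and Tnnt3 averaged at least 1 RPKM, at 3.51 to 10.8 RPKM, the myosins Myh1, Myh2 and Myh4 were at or near 0, and the 8 summed to 14.3 to 17.2 RPKM in null and 15.4 to 17.2 RPKM in wild-type libraries.

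**Figure D5:**
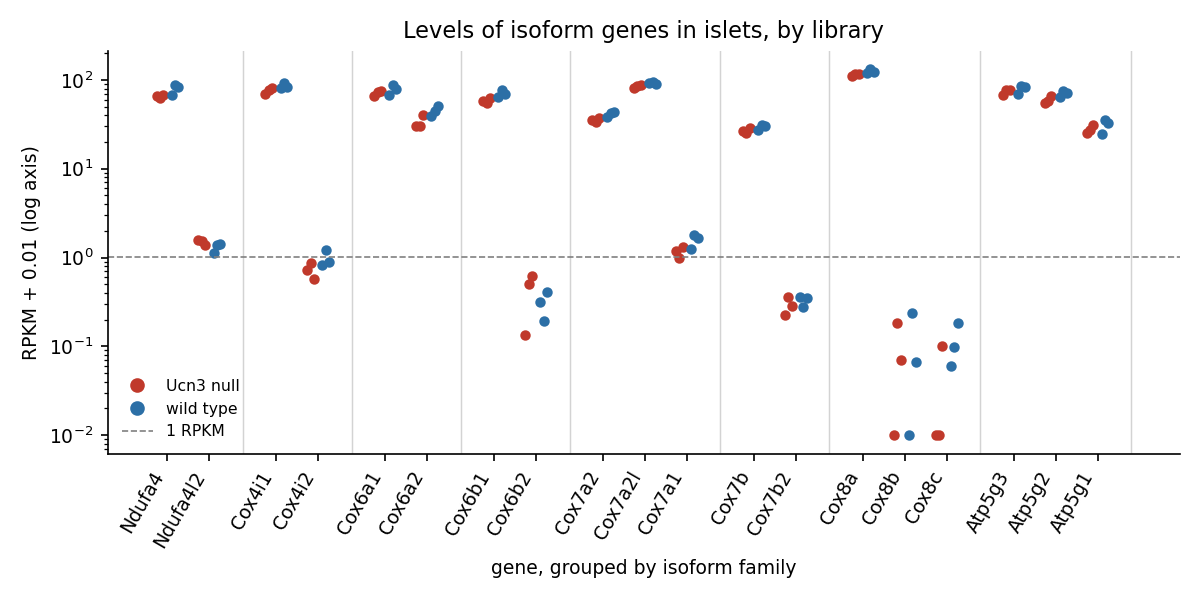
RPKM of the isoform genes by library, with 0.01 added so that zeros can be drawn on the log axis, Ucn3 null in red left of wild type in blue. Cox6a2 sits near Cox6a1, while Cox4i2, Cox6b2, Cox7b2, Cox8b and Cox8c average below the dashed line at 1 RPKM.

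All 17 complex V names were negative, against 61.7% of all tested genes, with a median of -0.14 (-0.23 without wild-type replicate 1). Their null libraries all lay below the wild-type ones in 4 of the 17, or 23.5%, against 13.2% of all genes. The 3 with the smallest p all belong to the membrane part. Atp5j2, subunit f, held 51.9, 54.2 and 55.5 RPKM in null and 62.1, 67.4 and 64.4 RPKM in wild-type libraries. Atp5k, subunit e, held 32.8, 34.6 and 33.6 RPKM in null and 37.5, 43.2 and 45.6 RPKM in wild-type libraries. In both, all null values lay below all wild-type values, with log2 differences of -0.26 (SE 0.07) and -0.31 (SE 0.09) and limma adjusted p of 0.49. Atp5l, subunit g, which joins synthase dimers together with subunit e, held 111, 112 and 129 RPKM in null and 135, 140 and 135 RPKM in wild-type libraries, again without overlap.

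In the catalytic F1 part, Atp5b, the catalytic beta subunit, averaged 122 ± 7.29 RPKM in null and 131 ± 11.3 RPKM in wild-type islets (SD, n = 3 each) with overlapping groups. The 5 F1 subunits (Atp5a1, Atp5b, Atp5c1, Atp5d and Atp5e) had a median log2 difference of -0.096 and a median length of 1166 bases. They ranged from -0.21 for Atp5e to -0.031 for Atp5d, and only Atp5c1 (-0.14) had groups without overlap. The 10 other structural subunits had a median of -0.19 and 770 bases, a split that was not tested. The proton-carrying c ring comes from 3 genes that encode the same mature protein. Atp5g3 averaged 73.4 ± 4.45 RPKM in null and 79.5 ± 8.55 RPKM in wild-type islets, Atp5g2 59.7 ± 5.80 and 70.5 ± 5.63 RPKM, and Atp5g1 27.8 ± 3.17 and 30.9 ± 5.68 RPKM (SD, n = 3 each). In every library Atp5g3 stood above Atp5g2 and Atp5g1 below both, and each gene overlapped between genotypes.

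None of the other genes of the pathway passed over all genes, and their counts stand against the 61.7% of all tested genes that were negative and the 13.2% whose null libraries all lay below. Median transcript lengths were 2065.5 bases for complex II, 1772.5 for electron carriers and ATP export and 2193 for assembly factors. They were 1495 bases for import and matrix genes and 2968.5 for regulators, against 745 for the members. Differences over all genes moved with length, and the medians below are not matched for it. Tested non-members of 1822 to 2235 bases had a median of -0.050, and those of 2683 to 3169 bases of -0.033. The 4 complex II genes, all tested, were all negative with a median of -0.081 and 0 without overlap. Sdhb, its iron-sulfur subunit, averaged 28.4 ± 1.93 RPKM in null and 30.6 ± 2.75 RPKM in wild-type islets (SD, n = 3 each), and the membrane anchor Sdhd 37.7 ± 1.78 and 40.1 ± 2.23 RPKM. Of 10 tested electron carrier and ATP export genes, 8 were negative with a median of -0.14, and 3 lay below without overlap. Atpif1, the inhibitor of ATP synthase hydrolysis, averaged 62.6 ± 2.78 RPKM in null and 74.8 ± 6.69 RPKM in wild-type islets without overlap, and Cycs, cytochrome c, 7.91 ± 0.35 and 9.84 ± 1.49 RPKM with overlap.

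Among 27 tested genes of the assembly factor list 21 were negative with a median of -0.094. The list as fixed also named Ndufab1, a complex I subunit gene that the symbol rule for members does not match. Without overlap, 5 of the 27 lay below, or 18.5%, and 1 above. Cox16, for complex IV, and Ndufaf4, for complex I, had log2 differences of -0.29 and -0.20 without overlap. Of 20 genes of mitochondrial import and matrix, 17 were negative with a median of -0.12, and 7 lay below without overlap. Tomm5 and Tomm7, small subunits of the outer membrane import pore, averaged 9.40 ± 0.80 and 13.8 ± 0.84 RPKM in null, against 12.8 ± 0.75 and 16.8 ± 1.27 RPKM in wild-type islets (SD, n = 3 each), both without overlap. The 16 tested regulators, such as the co-activator gene Ppargc1a and the mitochondrial transcription factor Tfam, had 5 negative members, a median of 0.017 and 0 without overlap. Tfam averaged 4.41 ± 0.41 RPKM in null and 4.89 ± 0.11 RPKM in wild-type islets, and Mterf, a mitochondrial termination factor, 2.12 ± 0.25 and 2.48 ± 0.21 RPKM, both with overlap. None of the 13 mitochondrially encoded subunit symbols searched for was among the gene symbols, so these subunits were not analysed here.

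Levels of some members carry a limit from transcript choice or gene copies. For 6 of the 7 symbols with several transcript rows, Ndufv3 and Atp5c1 among them, the rows were proportional within 0.1 percent, so isoforms cannot be told apart. Ndufv3 averages 69.0 RPKM by its shorter transcript and 21.1 RPKM by the other. RefSeq lists 13 pseudogenes named as a member's symbol followed by -ps, from 8 members, 4 of them of Atp5k and 2 each of Atp5l and Uqcrh. Copies under other names were not counted, so other members can have copies too. Reads shared with such copies make levels uncertain.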

How the data were processed

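Libraries were made from islet RNA with a TruSeq kit, per the labels' protocols. The authors deposited RPKM values, 1 row per RefSeq transcript. The submitters' processing notes name STAR, bedtools, DESeq and the build mm9, without roles or versions. Strand use and the treatment of shared reads are not given in the sources used here.

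Of 28129 rows, 28011 had values in every library, and 1 transcript per symbol was kept, that of highest mean RPKM. The 12652 genes averaging at least 1 RPKM entered limma 3.58.1 (R 4.3.3) as log2(RPKM + 1), genotype as the only term, with a mean trend and Benjamini-Hochberg adjustment over all tested genes at 0.05. The deposited RPKM values are not counts, so no count model was used. The log2 difference understates the change of low genes. The fit was tested on simulated data. Members and lists were chosen with earlier results of these data known, so lists are given as counts and medians, with no test of their own.

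Named members are, in each complex, the 3 with the smallest p, the 2 most abundant and the most positive one, with fixed isoform families, and from each related list the 2 genes with the smallest p. Cyc1, Uqcrfs1, Uqcrc1, Atp5c1, Atp5d and Atp5e were named besides, after their values were seen, and the value of 1 member is not reported here. Cell type markers were summed per library.

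Lengths came from GENCODE M21 by RefSeq accession, for 98.2% of tested genes. Low values times length fell on whole reads within 0.1 read for 72.7% to 74.9% of values, which gave the depth. Promoters are from RefSeq (GRCm38.p6), another build than the table's, and no coordinates of the table were used. Figures were drawn with matplotlib 3.10.9. Alternatives were another pseudocount, filters, scalings, no mean trend, the acinar mean as a covariate, summed transcripts, each library left out and, added after seeing the data, removal of a length trend.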

Additional observations from a re-analysis of the deposited data

How the results depend on the processing

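With the main settings and under every alternative run, 0 members were called. Under other scalings between libraries 69 to 73 of the 77 tested members were negative, against 38.3% to 51.5% of all tested genes. With equal totals without the acinar list the medians were -0.095 over all members, -0.11 for complex I, -0.095 for complex III, -0.080 for complex IV and -0.064 for complex V. With the acinar covariate the medians were -0.030 over all members, -0.030 for complex I, 0.061 for complex III, -0.040 for complex IV and -0.030 for complex V. In that fit 47 of the 77 members were negative, against 55.7% of all tested genes. With the length trend removed they were -0.053 over all members, -0.056 for complex I, -0.050 for complex III, -0.054 for complex IV and -0.047 for complex V. Leaving out 1 library gave medians from -0.23 to -0.12 over all members, from -0.23 to -0.14 for complex I, from -0.23 to -0.095 for complex III, from -0.22 to -0.11 for complex IV and from -0.23 to -0.12 for complex V, with 71 to 76 negative members. Calls over all genes numbered 2 with the main settings, 4 with no filter, 1 with a mean of at least 5 RPKM, 1 with the acinar covariate and 1 to 5 with 1 library left out.

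Signs turned for 6 named members with the acinar covariate: Atp5b 0.073, Atp5g1 0.22, Atp5g3 0.071, Cox4i1 0.00093, Cox6a1 0.12 and Uqcrq 0.066. With the length trend removed they turned for Atp5g3 (0.020), Cox6a1 (0.013) and Cox8a (0.014). The cause was not tested.

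No paired analysis was possible because the labels give no replicate number that links a null to a wild-type animal. Of the 77 tested members, 75 had at least 100 estimated reads in every library. The exceptions were Ndufa4l2 (45 to 77 reads) and Cox7a1 (18 to 34 reads). Whether depth or the spread between animals limited the calls was not tested.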
